A study of Mus musculus with 71 samples.

Results

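The adult females of line Ki2 compare a humanised Foxp2 allele with the mouse allele in the mature striatum. The 11 arrays were taken by their titles, which give the line, an age of 95 days, array run 6 and the genotype, out of 71 arrays in the series. Tested animals were 6 Foxp2hum/hum females (hum), and 5 Foxp2wt/wt females (wt) served as controls. All came from crosses of Foxp2wt/hum parents, so controls share the breeding history of the line and differ at the allele. The allele was made in C57BL/6 embryonic stem cells and places both human-type substitutions in an exon of the mouse gene. The line rests on 1 clone, which the labels name in 2 different ways. Removal of the neomycin resistance cassette is stated for line Ki and not for line Ki2. The striatum was dissected whole with the pallidum and both hemispheres were combined, so that each array carries RNA of 1 animal. Also used for comparison are embryos of line Ki2 at embryonic stage E16.5 (13 Foxp2hum/hum, 12 Foxp2wt/wt), dissected likewise, and juveniles aged 15, 18 or 21 days, whose striata were punched from slices. The juveniles are of line Ki (11 Foxp2hum/hum, 6 Foxp2wt/wt) and of line Ko (12 Foxp2wt/ko, 6 Foxp2wt/wt), and embryos and juveniles are of both sexes.

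Foxp2 encodes a forkhead-box transcription factor, and in the brain it is known from the medium spiny neurons of the striatum, deep cortical layers, the thalamus and Purkinje cells. Disruption of human FOXP2 causes a disorder of speech and language. The striatum receives cortical and dopaminergic input and takes part in the learning of movement sequences. In bulk tissue of this kind, fewer cells of a type and less RNA per cell cannot be told apart. Genes are listed by Ensembl-based identifiers that could be matched to no symbol here. Genes therefore appear by identifier without a role, and Foxp2 was not looked up by name. The tissue could not be checked against its markers, and no sequence is shown. Values are log2 expression values, in which a difference of 1 is a doubling, and 9461 of 15768 genes were tested after the dimmest 40% were left out.

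No gene differed between hum and wt adults past an adjusted p of 0.05, with or without adjustment for the split among the arrays. With genotype alone 0 of 9461 genes (0%) passed by limma, the smallest adjusted p being 0.709, and with adjustment 0 genes (0%) passed, the smallest being 0.314. Unadjusted p-values under 0.05 numbered 643 (6.8%) with genotype alone, 277 higher and 366 lower in hum adults. Adjustment gave 1445 genes (15.3%), of which 611 were higher and 834 lower in hum adults. An equal spread of p-values over the genes would give 473. How far these counts moved with single wt arrays is described below: without wt 1 they were 388 and 559, and without wt 5 they were 1536 and 2645.

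The 11 adult arrays fell into 2 sets that genotype did not separate. The first principal component of the tested genes held 49.3% of the variance among them. Scores of 5 arrays lay between -25.1 and -21.4 (the negative set: hum 1, hum 4, hum 5, wt 1 and wt 5), and those of 6 arrays between 12.8 and 27.4 (the positive set: hum 2, hum 3, hum 6, wt 2, wt 3 and wt 4). The mean score of hum adults was -2.99 ± 23.8 (SD, n = 6) and that of wt adults 3.58 ± 24.5 (SD, n = 5). After quantile normalization the component held 49.2%, and all 11 arrays kept their set. Without wt 1 it held 56.3% of the variance, and the remaining 10 arrays kept theirs.

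Litter and run did not separate the sets either. All 11 arrays were of 1 run. Litter 25 gave hum 3, hum 4, wt 4 and wt 5, with 1 array of each genotype in each set. In litter 26, hum 5 lay in the negative and hum 6 in the positive set, and in litter 20 both hum 2 and wt 2 lay in the positive set. The same-genotype littermates on these arrays, 3 pairs in all, thus always lay in opposite sets. The 10th percentile of the log2 values was 4.27 to 4.34 in the negative set and 4.36 to 4.50 in the positive set, without overlap. Arrays of the same set correlated at 0.946 to 0.989 across genes, and arrays of different sets at 0.887 to 0.954. The array most like wt 5 was hum 4, its littermate in the same set, at 0.989.

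The second component held 19.4% of the variance and spread the wt arrays far more than the hum arrays. Scores ran from -13.8 to -4.74 in hum adults, with a mean of -8.33 ± 3.34 (SD, n = 6), and from -10.1 to 34.6 in wt adults, with a mean of 9.99 ± 16.9 (SD, n = 5). The wt scores were 34.6 in wt 1, 6.31 in wt 2, 17.2 in wt 3, 1.98 in wt 4 and -10.1 in wt 5. Of the wt arrays, 4 lay above all hum arrays and wt 5 lay among them. This score thus went partly with genotype, and a fit that also adjusts for it can take out part of a genotype difference. The median SD of a gene was 0.222 in hum and 0.285 in wt adults, or 0.227 in wt adults without wt 1. The array wt 1 was also the least like the rest, with a highest correlation of 0.952 to any other array.

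**Figure D1:**
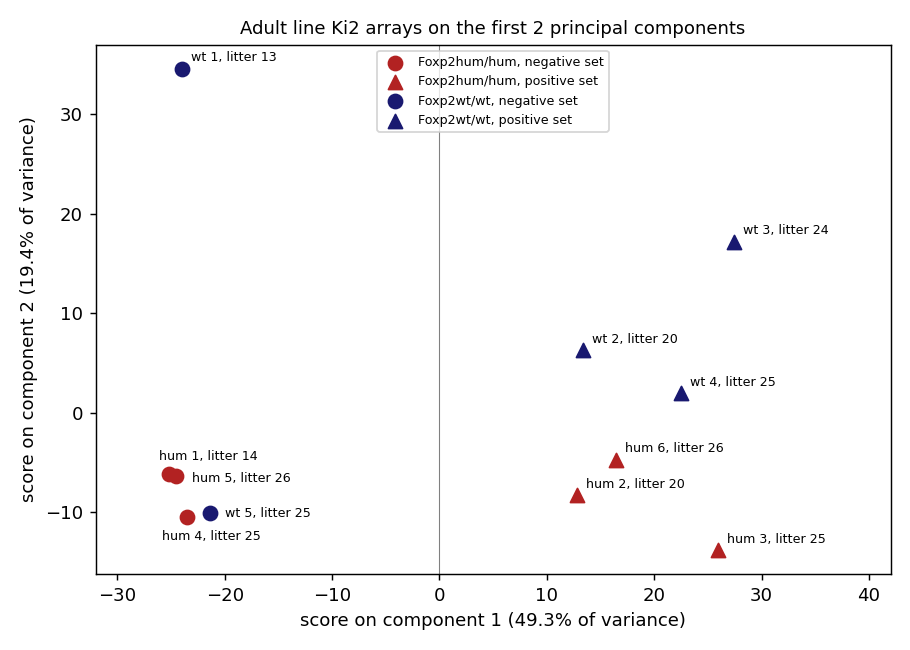
Scores of the 11 adult arrays on the first principal component (x axis, 49.3% of the variance) and the second (y axis, 19.4%), with Foxp2hum/hum in red, Foxp2wt/wt in dark blue, circles for the negative and triangles for the positive set. Both genotypes stand on both sides of 0 on the x axis, and wt 1 stands highest on the y axis at 34.6 while wt 5 lies among the hum arrays at -10.1.

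The size of the genotype differences was modest with genotype alone. The median absolute log2 fold change was 0.12, 326 genes exceeded 0.5 and 8 exceeded 1 in either direction, and the range was from -1.66 to 1.18. A typical 95% confidence interval was ± 0.33, and for 68.4% of genes it excluded a change of 1.5-fold or more. Among the 643 genes at an unadjusted p under 0.05, the median log2 fold change was 0.36 for those higher and -0.44 for those lower in hum adults. These genes were selected by that p, so their sizes are a description only. The counts were spread over all expression levels. In 4 groups of equal size from the dimmest to the brightest genes, 63, 68, 66 and 80 were higher in hum adults, and 80, 94, 111 and 81 were lower.

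Adjustment for the score on the first component narrowed the errors more than it moved the differences. The median residual SD was 0.196 with the adjustment and 0.258 without it. The typical interval narrowed to ± 0.26, and it excluded a 1.5-fold change for 82.6% of genes. The standard error was smaller for all 9461 genes, with a median ratio of 0.832, while the median shift of a log2 fold change was 0.039. The sign changed for 967 genes, none of them among the 639 genes at an unadjusted p under 0.05 in both fits. A further 806 genes reached that level only after adjustment, and 4 only without it.

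Genes were then sorted into 5 groups of equal size by the share of their variance on the first component. This sorting uses the component adjusted for, so narrower intervals in the later groups follow from it. In the group with the smallest share (median 1.91%), 347 had an unadjusted p under 0.05 with adjustment and 260 without. The next 3 groups gave 350, 260 and 278 genes with adjustment and 200, 112 and 67 without. In the group with the largest share (median 79.0%), these counts were 210 with adjustment and 4 without. There the typical interval was ± 0.23 with adjustment and ± 0.46 without. The shares of genes at that level were nearer each other across the 5 groups of genes after adjustment, at 18.3%, 18.5%, 13.7%, 14.7% and 11.1% from the smallest to the largest share.

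**Figure D2:**
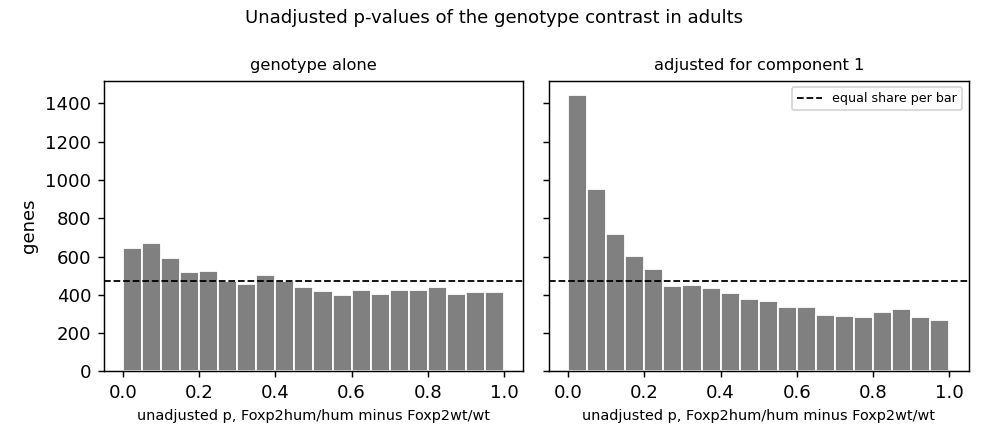
Number of genes (y axis) by unadjusted p-value of the Foxp2hum/hum minus Foxp2wt/wt contrast (x axis), with genotype alone on the left and with adjustment for the first component on the right, the dashed line marking an equal share per bar. The lowest bar holds 643 genes on the left and 1445 on the right.

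Genes named below for a small p in adults were picked over these same adult arrays. Their separation, set and pair values describe them and are no separate test. Among genes that were higher in hum adults with genotype alone, the smallest unadjusted p belonged to ENSMUSG00000046269_at. Its log2 values in hum adults had a lowest of 6.50, a median of 6.61 and a highest of 6.75, against 5.95, 6.40, 6.15, 6.27 and 6.23 in wt 1 to wt 5. All hum arrays lay above all wt arrays. The log2 fold change came to 0.40 ± 0.10 (SE; limma, adjusted p = 0.709), and to 0.42 ± 0.09 (SE) after adjustment (adjusted p = 0.314). It was 0.49 within the negative set and 0.35 within the positive set. In the 3 pairs of hum and wt littermates that share a set, the difference was 0.23 in litter 20, 0.48 in the positive-set pair of litter 25 and 0.41 in its negative-set pair. With the first 2 components adjusted for, the second of which went partly with genotype, the log2 fold change was 0.27 (adjusted p = 0.998). In embryos of the same line the log2 fold change was -0.04, with a 95% confidence interval from -0.19 to 0.10.

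ENSMUSG00000001767_at followed, at a lowest log2 value of 6.65, a median of 6.75 and a highest of 6.79 in hum adults. The wt arrays stood at 6.35, 6.53, 6.32, 6.19 and 6.50 from wt 1 to wt 5, all below the hum arrays. Its log2 fold change came to 0.35 ± 0.09 (SE; limma, adjusted p = 0.709), and 0.34 after adjustment. The split held 4.13% of its variance. In embryos the log2 fold change was 0.14, with an interval from 0.02 to 0.26.

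The smallest unadjusted p of all, with genotype alone, belonged to ENSMUSG00000021493_at, which was lower in hum adults. Its log2 values ran from 6.15 over a median of 6.21 to 6.33 in hum adults, against 7.1, 6.60, 6.78, 6.72 and 6.54 in wt 1 to wt 5. The genotypes did not overlap, and wt 1 was the highest array. The log2 fold change came to -0.52 ± 0.11 (SE; limma, adjusted p = 0.709), -0.54 after adjustment (adjusted p = 0.314) and -0.44 without wt 1. Adjustment for the first 2 components gave -0.31 (adjusted p = 0.998). The 3 littermate pairs gave -0.43 in litter 20, and -0.58 and -0.35 in litter 25. In embryos the value was -0.07, with an interval from -0.21 to 0.07.

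ENSMUSG00000060371_at showed a larger but noisier difference in the same direction. Hum adults had a lowest log2 value of 9.90, a median of 10.23 and a highest of 10.96, and wt 1 to wt 5 stood at 11.62, 11.32, 11.21, 10.80 and 10.64. The array hum 6, at 10.96, lay above wt 4 and wt 5, so the genotypes overlapped. The log2 fold change came to -0.84 ± 0.21 (SE; limma, adjusted p = 0.709) and -0.82 after adjustment. In embryos it was 0.01, with an interval from -0.23 to 0.25.

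After adjustment a different kind of gene entered the top of the ranking, one in which both genotypes followed the split. ENSMUSG00000007880_at had the smallest unadjusted p of the adjusted fit, and the split held 84.8% of its variance. In the negative set it stood at 9.05, 8.87 and 9.27 in hum 1, hum 4 and hum 5, against 9.67 and 9.54 in wt 1 and wt 5. In the positive set it stood at 7.35, 6.41 and 7.59 in hum 2, hum 3 and hum 6, against 7.97, 7.61 and 7.69 in wt 2, wt 3 and wt 4. All hum arrays lay below all wt arrays within each set, although the genotypes overlapped when the sets were pooled. The log2 fold change came to -0.41 ± 0.56 (SE) for genotype alone, and to -0.70 ± 0.13 (SE) after adjustment (limma, adjusted p = 0.314). Adjustment for the first component of the residuals after genotype instead leaves the log2 fold change at -0.41 by construction, and gave an adjusted p of 0.234 (limma). In embryos the log2 fold change was 0.10, with an interval from -0.14 to 0.34.

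ENSMUSG00000036775_at behaved likewise in the other direction, with 85.4% of its variance on the split. Its log2 values in the negative set were 7.74, 7.62 and 7.75 in hum 1, hum 4 and hum 5, against 6.81 and 7.29 in wt 1 and wt 5. In the positive set they were 6.42, 5.71 and 6.11 in hum 2, hum 3 and hum 6, against 5.81, 4.55 and 5.38 in wt 2, wt 3 and wt 4. All hum arrays of the negative set lay above its wt arrays, and in the positive set hum 3 lay below wt 2. The log2 fold change came to 0.92 ± 0.51 (SE) for genotype alone and to 0.66 ± 0.14 (SE) after adjustment (limma, adjusted p = 0.314). It was 0.37 with the first 2 components adjusted for, and 0.43 with litter as a fixed block. In embryos it was -0.11, with an interval from -0.40 to 0.18.

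**Figure D3:**
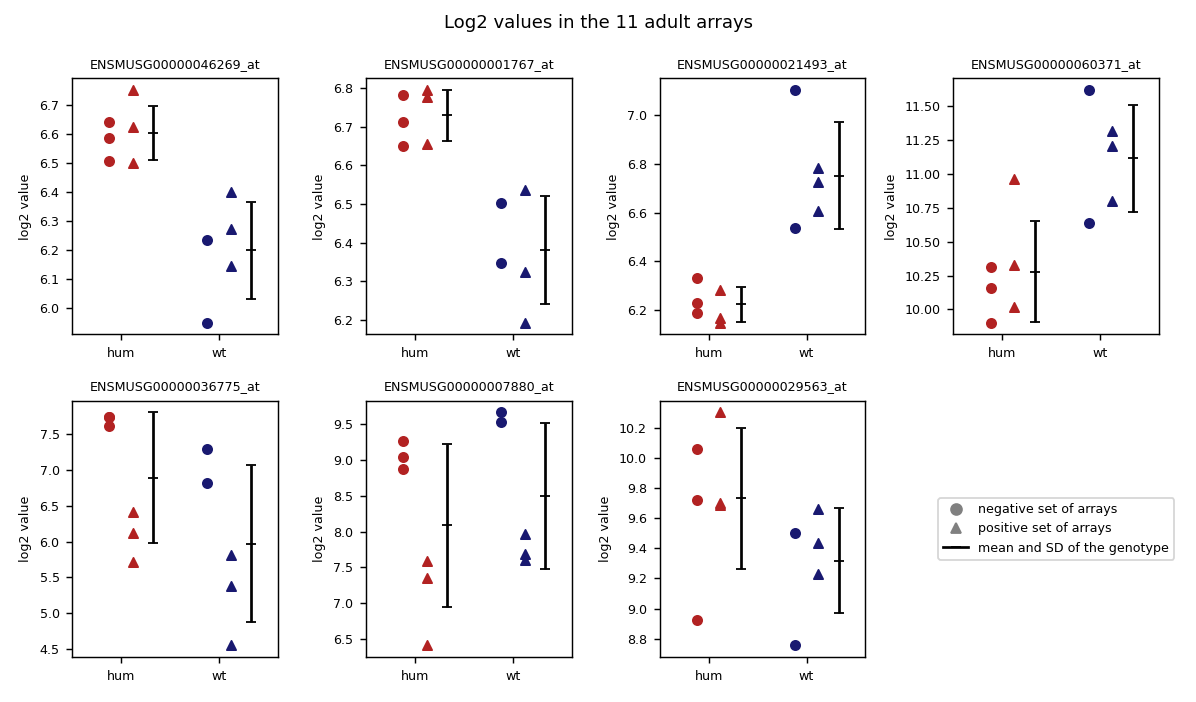
Log2 values (y axis) of 7 genes in hum adults (left of each panel) and wt adults (right), 1 point per array, with circles for the negative and triangles for the positive set and bars for the mean and SD of each genotype. ENSMUSG00000046269_at, ENSMUSG00000001767_at and ENSMUSG00000021493_at separate the genotypes, while ENSMUSG00000007880_at and ENSMUSG00000036775_at separate the sets first.

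ENSMUSG00000029563_at is of interest because it alone passed in juveniles with 1 knock-out allele of Foxp2 (Foxp2wt/ko), where it was lower than in wt juveniles of line Ko (log2 fold change -0.59, limma, adjusted p = 0.000829). The identifier was not matched to a symbol, so this fall cannot be read as that of a gene other than Foxp2 itself. In adults the log2 values of ENSMUSG00000029563_at ran from 8.92 over a median of 9.71 to 10.30 in hum animals, and were 8.76, 9.66, 9.43, 9.23 and 9.50 in wt 1 to wt 5. Of the hum arrays, 5 lay above all wt arrays, and hum 5 lay below all but wt 1. The log2 fold change was 0.42, with a 95% confidence interval from -0.08 to 0.91, and 0.46 after adjustment, with an interval from 0.01 to 0.91 (limma, adjusted p = 0.715 and 0.327). An exact permutation test over all splits of the arrays into 6 and 5 gave a two-sided p of 0.136, and one over the 200 splits within the sets gave 0.105. Without wt 1 the log2 fold change was 0.28, and 0.33 after adjustment. Array quality weights gave 0.22, and 0.31 after adjustment, and adjustment for the first 2 components gave 0.22. In embryos of line Ki2 it was -0.01, with an interval from -0.15 to 0.14.

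Complete separation of the genotypes was rare, and about as frequent as interchangeable genotype labels would give. All 6 hum arrays lay above all 5 wt arrays for 29 genes (0.307% of those tested), with a median log2 fold change of 0.34. They lay below for 15 genes (0.159%), with a median of -0.32. When only arrays of the same set were set against each other, hum lay above wt within both sets for 126 genes (1.33%) and below within both for 77 genes (0.814%). Without wt 1, complete separation held for 42 genes above and 17 below, though fewer arrays make it easier to reach. With interchangeable genotype labels, the expected fraction of completely separated genes over all arrays is 0.00433, both directions together. The 0.307% above and 0.159% below are together close to it, so these genes are a description only. Within the sets the expected fraction is 0.005 in each direction, below the 1.33% and 0.814% found. Genes are not independent, and this excess was not tested. The fraction without wt 1 was not computed. In hum embryos 18 of the 29 genes (62.1%) were higher, against 58.3% of all genes with a positive adult difference. Of the 15 genes, 12 (80%) were lower in hum embryos, against 60.5% of all genes with a negative adult difference.

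The sets can be treated as 2 smaller comparisons that share no array. Litters 25 and 26 gave arrays to both sets, so the comparisons are not fully independent. In the negative set (3 hum, 2 wt) 0 genes passed and 515 had an unadjusted p under 0.05, 268 higher and 247 lower in hum adults. In the positive set (3 hum, 3 wt) 0 genes passed and 860 had an unadjusted p under 0.05, 289 higher and 571 lower. A direct test of whether the genotype effect differs between the sets passed 0 genes (0%), with 337 at an unadjusted p under 0.05 (limma, smallest adjusted p = 0.996). Across genes, the log2 fold changes of the sets correlated at 0.37, and 63.8% had the same sign. These values depended on the 2 wt arrays of the negative set. Without wt 1 the correlation was -0.09 and 45.1% of genes had the same sign. The negative set then held wt 5 as its only wt array, which lay among the hum arrays on the second component. Without wt 5 instead, wt 1 was the only wt array there, and the correlation was 0.46. Leaving out any array but wt 1 kept the correlation between 0.31 and 0.46.

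**Figure D4:**
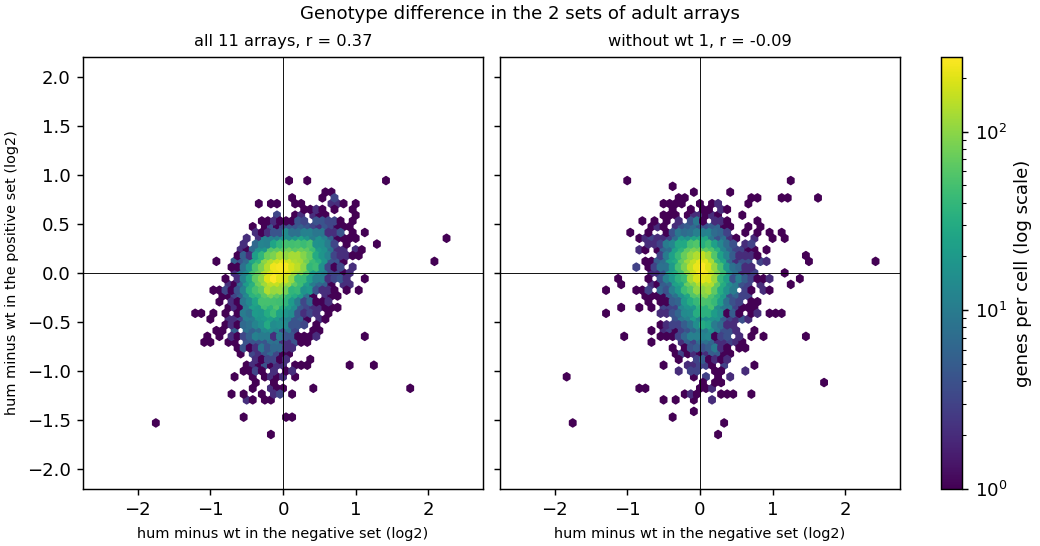
Log2 fold change of hum minus wt adults in the negative set (x axis) and the positive set (y axis), with colour for the number of the 9461 genes per cell on a log scale. The cloud tilts upward with all 11 arrays (left, r = 0.37) and no longer does without wt 1 (right, r = -0.09).

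A second division of the arrays followed the litters. Litters 20 and 25 hold 3 pairs of hum and wt females that share both litter and set. A fit of these 6 arrays by pair passed 0 genes, with 641 at an unadjusted p under 0.05, 249 higher and 392 lower in hum adults. The median absolute log2 fold change over the pairs was 0.10. The other 5 arrays came from litters that gave arrays of 1 genotype each. Log2 fold changes from the pairs and from these 5 arrays correlated at 0.34 across genes, with 61.4% of the same sign, and at 0.21 with 54.9% without wt 1. Leaving out wt 1 left wt 3 as the only wt array of these other litters.

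Single arrays moved the counts more than quantile normalization or median centring did, which gave 619 and 604 genes for genotype alone. At an unadjusted p under 0.05, leaving out each array in turn gave from 315 (without wt 3) to 1536 genes (without wt 5) for genotype alone. With adjustment the range was 559 (without wt 1) to 2645 (without wt 5). Without hum 4 and without hum 5 the genotype-alone counts were 386 and 411. Adjusted counts were 795 without hum 3 and 865 without wt 3. Without wt 5, 256 genes passed the adjusted fit, 103 higher and 153 lower in hum adults, with medians of 0.61 and -0.62, and with genotype alone 0 passed. The array wt 5 correlated with the hum arrays at a mean of 0.965 and with the other wt arrays at 0.936. These means mix genotype with the split, since wt 5 shares its set with hum 1, hum 4 and hum 5 but with only wt 1 among the wt arrays. The label of wt 5 gives it as wild type and was kept.

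**Figure D5:**
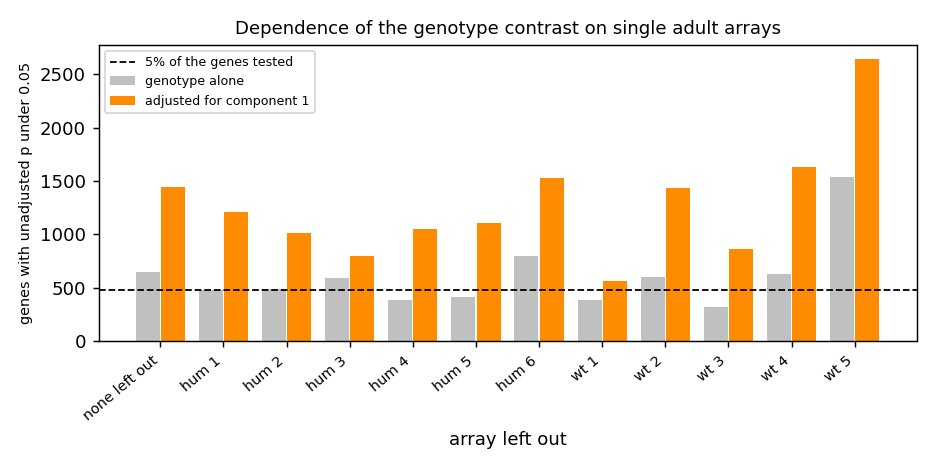
Number of genes with an unadjusted p under 0.05 (y axis) for the hum minus wt contrast after leaving out the adult array named on the x axis, with grey bars for genotype alone and orange bars for adjustment by the first component; the dashed line marks 5% of the genes tested. Without wt 5 the bars reach 1536 and 2645, and without wt 1 they stand at 388 and 559.

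The counts also differed when embryos entered the fit. A fit over all 36 arrays of line Ki2 shares 1 spread per gene with the 13 hum and 12 wt embryos. The median residual SD was 0.258 in adults, 0.158 in embryos and 0.203 when shared. In this fit, which also has more residual degrees of freedom, the adult contrast passed 155 genes for genotype alone, 53 higher and 102 lower in hum adults. It passed 643 genes after adjustment, 223 higher and 420 lower. This 643 is a count of genes past the adjusted threshold and not the 643 at an unadjusted p given above. Which property of the fit moved the counts was not tested.

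The embryos of line Ki2, at E16.5, share no animal with the adults. Of the 643 adult genes at an unadjusted p under 0.05, 442 (68.7%) had a log2 fold change of the same sign in hum embryos, against 59.4% of all genes tested. After adjustment these values were 988 of 1445 (68.4%) against 59.8%. Without wt 1 they were 246 of 388 (63.4%) against 54.9%, and 343 of 559 (61.4%) against 55.7% after adjustment. Genes are not independent replicates, and no p is given for these shares. The median absolute log2 fold change over all genes was 0.12 in adults, with a typical 95% interval of ± 0.33 over 11 arrays, against 0.045 in embryos, with ± 0.13 over 25 arrays. These medians include the error of estimation, which is larger in adults.

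Whether adults and embryos differ in their response to the humanised allele was tested as an interaction, which called 0 genes (0%), with 976 at an unadjusted p under 0.05 (limma, smallest adjusted p = 0.146). Without hum 6, 18 genes passed, and without wt 5, 502. Stage cannot be told apart from array run here, as embryos were in other runs than the adults.

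The juveniles of line Ki, aged 15, 18 or 21 days, come from another clone with a humanised Foxp2 allele. Among the 643 adult genes, 398 (61.9%) had the same sign there, against 56.1% of all genes, and without wt 1 238 of 388 (61.3%), against 54.4%. The adjusted fit gave 894 of 1445 (61.9%) against 56.5%, and without wt 1 325 of 559 (58.1%) against 54.6%. Among the genes higher in hum adults, 202 of 277 (72.9%) were also higher in hum juveniles, against 60.5% of all genes with a positive adult difference. Of the 366 lower genes, 196 (53.6%) were also lower in hum juveniles, against 52.1%. Without wt 1 the shares were 100 of 155 (64.5%) against 57.8% for higher genes, and 138 of 233 (59.2%) against 50.5% for lower ones. In the adjusted fit without wt 1 they were 140 of 240 (58.3%) against 58.4% for higher genes, and 185 of 319 (58.0%) against 50.7% for lower ones. Line, age, dissection and array run change together between these animals and the adults, and the juveniles are of both sexes.

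Gene groups could be formed only from the table itself, since names were lacking. Between 15 and 21 days, 2 groups of genes changed in the juveniles of both lines by limma at an adjusted p of 0.05. Of the 1719 genes that fell with age, 36.7% had a higher level in hum than in wt adults, against 47.8% of all genes, and their median log2 fold change was -0.06 against -0.01. After adjustment the share was 35.3% against 45.7%. Without wt 1 the shares lay closer together, at 45.0% against 53.1%, and at 46.8% against 50.3% after adjustment. Of the 1077 genes that rose with age, 54.3% were higher in hum adults, and 52.4% after adjustment. Without wt 1 these shares were 59.2% against 53.1% of all genes, and 49.3% against 50.3% after adjustment. No gene of either group passed in either fit. Of the 163 genes that were higher in hum embryos at an unadjusted p under 0.05, 68.7% were higher in hum adults, and of the 302 that were lower, 34.4% were higher, against 47.8% of all genes. Without wt 1 these values were 68.7% and 45.4%, against 53.1%.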

How the data were processed

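The log2 expression values deposited by the authors were used as given, 1 row per gene identifier. The sources used here do not name the background correction, normalization or probe summary. Biotinylated cRNA was made by Affymetrix protocols, per the labels. Array number limits the precision. Arrays hold separate animals. Replicate numbers in the labels count littermates and pair nothing, so arrays were numbered by accession within genotype.

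Genes in the dimmest 40% by mean over the 71 arrays were left out. limma 3.58.1 (R 4.3.3) fitted the contrasts, using an intensity trend in eBayes; p-values were adjusted by Benjamini-Hochberg over all genes tested and called at 0.05. The adjusted fit added the score on the first principal component of the adult arrays, recomputed where an array was left out. This score comes from the same values, so the adjusted p-values take it as known. Fits were tested on simulated data. Alternatives changed the filter, normalization, variance model, weights, litter and arrays. The 2 sets, the gene groups and the lists were chosen with earlier results of these data known. Of 36 symbol lists, 0 could be matched to the identifiers, so the planned rule for named genes was replaced by the 2 smallest p in each direction per fit. ENSMUSG00000029563_at was added with its values known.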

Additional observations from a re-analysis of the deposited data

How the results depend on the processing

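The count of 0 for genotype alone held under all filters, normalizations, variance models, weights, litter blocks and single arrays left out, and became 155 in 1 fit over the 36 arrays of line Ki2. With array quality weights it held only narrowly, the smallest adjusted p being 0.0516 (limma), against 0.709 in the main fit. The adjusted count ran from 0 to 256 when each array was left out and was 643 in the 36-array fit. The adult and embryo difference ran from 0 to 502 when each adult array was left out and was 1822 with array quality weights. At an unadjusted p under 0.05, weights gave 2738 genes for genotype alone and 3100 for the adult and embryo difference, which was 523 without sex and run. The 36-array fit gave 1760 for genotype alone and 2398 adjusted. Adjustment for the first 2 components gave 225, with log2 fold changes of named genes reduced by over 1.5 times (4 of 5, given beside each gene). The second component went partly with genotype, so such a reduction can follow from the adjustment itself. Litter as a fixed block gave 117 and 543, and passed 0 genes. With the littermate number as a replicate block 0 genes passed in either fit, with 486 for genotype alone and 1307 adjusted. The share of same signs in embryos was 63.4% without wt 1, against 54.9% of all genes tested. With no filter it was 63.5%, and the share over all genes is not given for that setting. The correlation between the sets was -0.09 without wt 1, and that between littermate pairs and other litters 0.21. Without wt 1, the negative set and the other litters each had a single wt array. Of 303 alternative values of named genes, 285 kept direction and side of the threshold and 18 newly passed it. The cause of these moves was not tested. The number of arrays limits the precision.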
